A study of Mus musculus with 28 samples.

Results

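The expression of 9 genes of the BCL-2 family was followed in mouse ear skin, namely Mcl1, Bcl2, Bcl2l1, Bcl2a1b, Bax, Bak1, Bcl2l11, Bid and Bmf. The genes were chosen by name as regulators of apoptosis, with earlier results of these data known. They are 9 of the 55414 genes of the deposited count table. All 9 were among the 18991 genes with enough counts to be tested. The ears came from 28 female C57BL/6J mice aged 6 to 8 weeks. RGRN-305, an inhibitor of the chaperone HSP90, is given topically here at 1 mg per ear, and TPA, a phorbol ester known to switch on protein kinase C and to inflame the skin within hours, at 2.5 µg per ear. The vehicle group (n = 4) received acetone at both steps, the RGRN-305 group (n = 4) received RGRN-305 and 100 min later acetone, the TPA group (n = 10) acetone and 100 min later TPA, and the TPA+RGRN-305 group (n = 10) RGRN-305 and 100 min later TPA. A punch biopsy of the ear, frozen 4 hours after the second application, gave 1 RNA library per mouse, so that every group was sampled at a single time.

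BCL-2 family proteins meet at the outer membrane of the mitochondrion and decide whether it is opened in the intrinsic pathway of apoptosis. Pro-survival members such as MCL-1, BCL-2, BCL-XL and A1 hold the effectors BAX and BAK in check, and BH3-only members such as BIM, BID and BMF relay stress signals by binding the pro-survival proteins or the effectors. Opened membranes release cytochrome c, which activates caspases through APAF-1. In skin, the balance of these proteins is known to set the survival of keratinocytes and of infiltrating leukocytes, and A1 is best known from haematopoietic cells. The data are RNA levels, and protein levels and cell death were not measured in them.

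The total count was 16751780 to 24716640 per mouse. Counts were scaled by TMM (trimmed mean of M values) and tested with the quasi-likelihood test of edgeR over all 28 libraries, with Benjamini-Hochberg adjustment over all genes tested, and a gene passed at an adjusted p under 0.05. Under scaling by library totals without TMM, the median log2 fold change over all tested genes shifted by -0.286 for TPA against vehicle and by 0.257 for TPA+RGRN-305 against TPA. The genes past the threshold then divided into 3909 higher and 9980 lower in place of 6000 and 6537 in the first comparison, and into 10519 higher and 3665 lower in place of 6264 and 6193 in the second. Changes of the family genes below about this size are therefore given under both scalings. Markers of keratinocytes summed to 22430 to 28730 CPM (counts scaled to a common library size) over all mice, and those of fibroblasts, endothelium, muscle, fat, cartilage and melanocytes were also detected in all groups, as in whole ear skin. Library 6 of the TPA+RGRN-305 group held 0.538 CPM of Xist, the RNA of the inactive X chromosome, against 395.6 to 742 CPM in the other libraries, which goes against its label as a female mouse. Transcripts of growing hair follicles summed to over 10 times the lowest library's 7.14 CPM in 3 libraries, at 92.0 CPM in TPA replicate 3 and 189.6 and 71.4 CPM in TPA+RGRN-305 replicates 1 and 6. The next library, at 58.0 CPM, followed without a clear gap. No call of the 9 genes changed when library 6 was left out. Leaving out the 3 libraries changed 3 of 54 calls, which are given with the genes concerned.

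With TPA, the pro-survival genes Mcl1 and Bcl2a1b and the BH3-only gene Bcl2l11 rose, while the BH3-only genes Bmf and Bid and the effectors Bax and Bak1 fell. Of the 9 genes 4 rose, 4 fell and Bcl2 did not pass, against a background of 31.6% of all tested genes higher and 34.4% lower. The median log2 fold change of the 9 genes was -0.04, beside -0.03 over all genes. By the criteria for a differentially expressed gene (DEG), which also ask for a log2 fold change beyond 1 in either direction and for more than 50 normalized counts on average, Mcl1 was 1 of the 7.61% of genes that were higher and Bmf 1 of the 5.34% that were lower. In TPA+RGRN-305 versus TPA, 4 genes were higher (Bax, Bak1, Bid and Bmf) and 3 lower (Mcl1, Bcl2l11 and Bcl2a1b), against 33.0% and 32.6% of all tested genes. As DEGs, Bmf was higher against a background of 2.69%, and Mcl1 and Bcl2l11 were lower against 4.61%. The 2 comparisons share the TPA mice, and each is reported with its own values. With library totals 3 of the 9 were higher and 6 lower in TPA versus vehicle, and 6 higher and 3 lower in TPA+RGRN-305 versus TPA, with Bcl2 passing and Bcl2l1 turning sign in both. In each direction the 3 or 4 of 9 genes that passed were not far from the background shares, and the size and direction of the single changes are described by role.

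**Figure D1:**
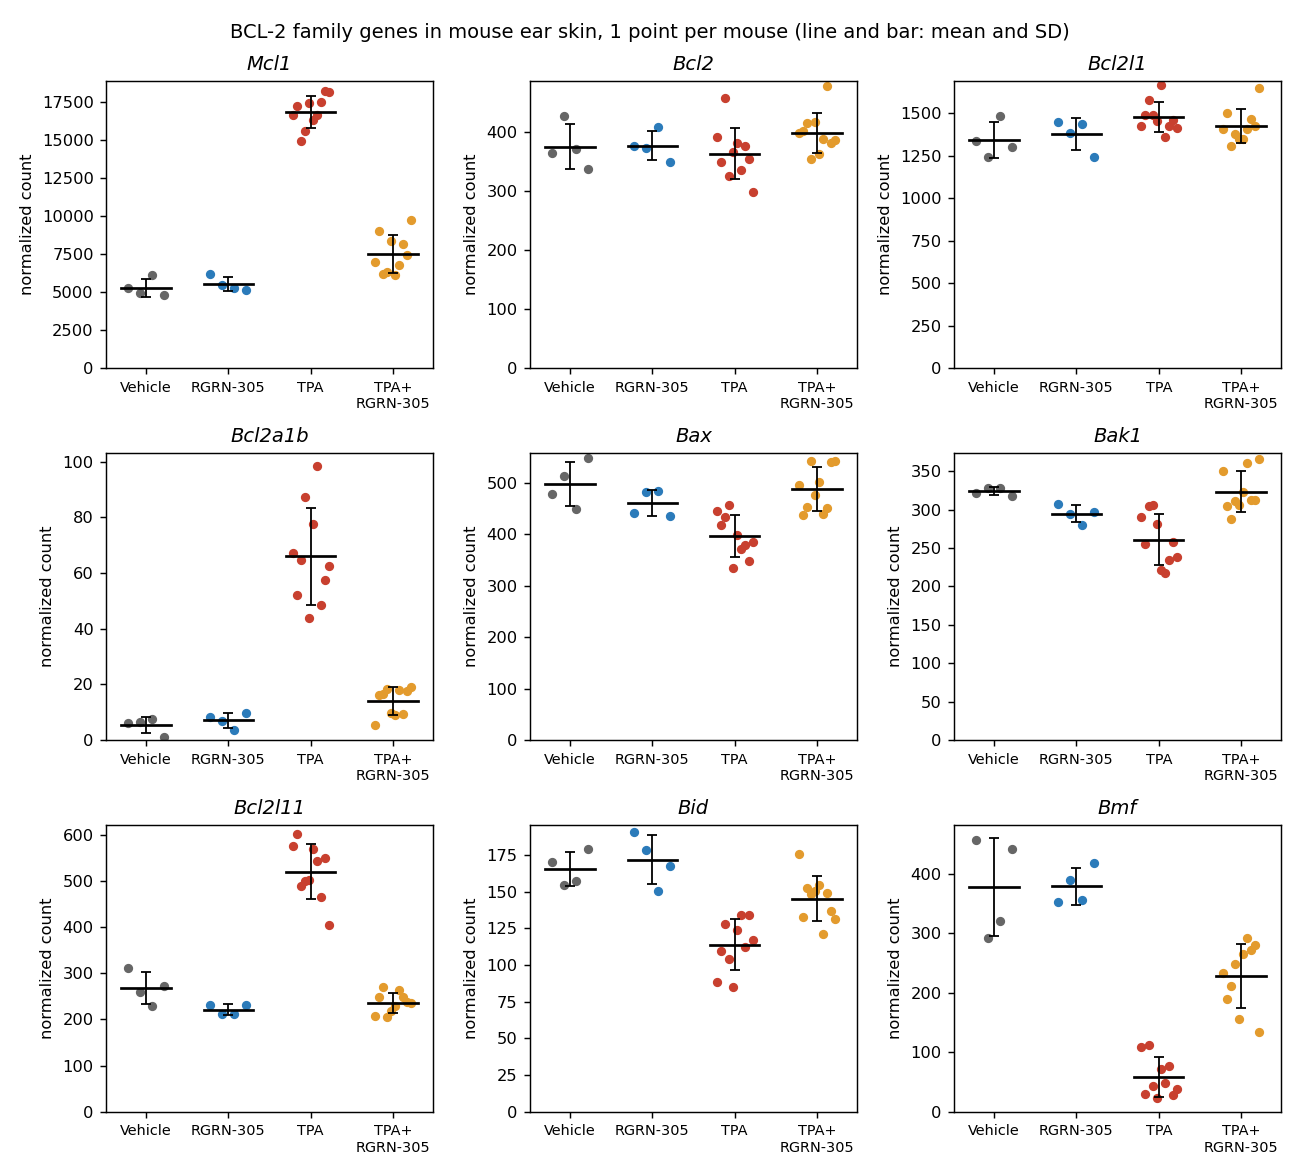
Normalized counts (TMM-scaled, y axis, from 0) of the 9 BCL-2 family genes in each of the 28 mice by treatment group (x axis), with the mean as a line and the SD as a bar (n = 4, 4, 10 and 10). The 10 TPA mice lie at 14897 to 18177 for Mcl1, above every other mouse, and at 23.2 to 112.7 for Bmf, below every other mouse.

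Mcl1 encodes a short-lived pro-survival protein and lies on chromosome 3 (95566026 to 95570487 of GRCm39, plus strand, ENSMUSG00000038612.17). Its normalized count was 5267, 4913, 6120.0 and 4801 in the vehicle mice and 6185, 5484, 5241 and 5132 in the RGRN-305 mice. With TPA it ran from 14897 to 18177 with a median of 16931, and with TPA+RGRN-305 from 6147.5 to 9756.5 with a median of 7196. The TPA mice were therefore all above the other 18, and the TPA+RGRN-305 mice lay between the TPA and the vehicle mice without overlap on either side. Mcl1 was 3.19-fold higher in TPA versus vehicle (log2 fold change 1.67, SE 0.11, adjusted p = 5.77e-15, edgeR) and stood at 0.446 of the TPA level in TPA+RGRN-305 versus TPA (-1.16, SE 0.07, adjusted p = 4.79e-15). It stayed 1.42-fold above vehicle in TPA+RGRN-305 mice (log2 fold change 0.51, SE 0.10, adjusted p = 0.000341). In biopsies, a change in the number of cells that hold a transcript and a change in its RNA per cell cannot be told apart.

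Bcl2, the founding pro-survival gene of the family (chromosome 1, 106465908 to 106642060, minus strand, ENSMUSG00000057329.8), overlapped between all groups. Its normalized count was 365, 427, 372 and 337 in vehicle mice and 376, 372, 409 and 349 in RGRN-305 mice. It was 299 to 457 (median 360.1) with TPA and 355 to 477 (median 393) with TPA+RGRN-305. The log2 fold change in TPA versus vehicle was -0.04 (95% interval -0.22 to 0.13, adjusted p = 0.666, edgeR), and under scaling by library totals it was -0.33 (adjusted p = 0.00133). Between TPA+RGRN-305 and TPA mice it was 0.13 (95% interval 7.49e-05 to 0.26, adjusted p = 0.073), which became 0.39 with library totals (adjusted p = 6.28e-06) and 0.19 without the 3 libraries with hair follicle transcripts (adjusted p = 0.0115). With TMM kept, it also passed without the filter on low counts (0.16, adjusted p = 0.048) and in a fit of the compared groups alone (0.15, adjusted p = 0.0493). Bcl2 thus lay at the threshold in this comparison, and its call in TPA versus vehicle depended on the scaling.

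Bcl2l1, which encodes the pro-survival protein BCL-XL and, by alternative splicing, a pro-apoptotic short form (chromosome 2, 152622582 to 152673655, minus strand, ENSMUSG00000007659.19), differed little between the groups. Gene counts do not separate the splice forms. Its normalized count was 1339.5, 1241.5, 1486 and 1303 in vehicle mice and 1447, 1384, 1438 and 1243 in RGRN-305 mice. It was 1363 to 1669 (median 1459) with TPA and 1306 to 1649.7 (median 1409.6) with TPA+RGRN-305, and all 4 groups overlapped. The log2 fold change in TPA versus vehicle was 0.14 (SE 0.06, adjusted p = 0.0431, edgeR), but -0.15 with library totals (adjusted p = 0.0165). Without vehicle replicate 1, 2 or 4, or without the 3 libraries with hair follicle transcripts, it no longer passed (adjusted p = 0.0818, 0.185, 0.115 and 0.0754). In TPA+RGRN-305 versus TPA the log2 fold change was -0.05 (95% interval -0.14 to 0.04, adjusted p = 0.312), and 0.20 with library totals (adjusted p = 6.2e-05).

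Bcl2a1b is 1 of the mouse A1 genes, a cluster of near-identical pro-survival genes on chromosome 9 that correspond to the single human gene BCL2A1 (Bcl2a1b at 89081262 to 89089889 of GRCm39, plus strand, ENSMUSG00000089929.2). The first 60 coding bases of the 3 genes in the table, from the GENCODE M39 transcripts on GRCm39, are shown because they make up a stretch by which reads can be assigned to a copy, with the 6 positions that differ among them in capitals.
Bcl2a1a: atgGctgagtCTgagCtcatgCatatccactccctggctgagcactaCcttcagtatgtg
Bcl2a1b: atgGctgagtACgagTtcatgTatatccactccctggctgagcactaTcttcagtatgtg
Bcl2a1d: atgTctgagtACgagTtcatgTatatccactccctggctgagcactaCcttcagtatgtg
Over all 516 coding bases the copies differ at 12 positions, and Bcl2a1b is 97.9% identical to Bcl2a1a and 98.8% to Bcl2a1d. Of all stretches of 150 bases in the Bcl2a1b transcript, 41.7% also occur in a transcript of another gene (Gm29094, Bcl2a1d or Bcl2a1a). Since the authors counted only uniquely aligned reads, the counts of these copies are uncertain.

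The raw count of Bcl2a1b was low in resting skin, with 21 reads in all 4 vehicle mice together and 29 in the 4 RGRN-305 mice. The normalized count was 6.22, 6.52, 7.57 and 0.909 in vehicle mice and 8.32, 6.97, 3.46 and 9.75 in RGRN-305 mice. It was 43.9 to 98.4 (median 63.6) with TPA and 5.19 to 18.9 (median 16.3) with TPA+RGRN-305. The TPA mice were all above the other 18, whereas the TPA+RGRN-305 mice overlapped with the vehicle mice. Bcl2a1b was 12.4-fold higher in TPA versus vehicle (log2 fold change 3.63, SE 0.34, adjusted p = 5.41e-11, edgeR) and 0.212 of the TPA level in TPA+RGRN-305 versus TPA (-2.24, SE 0.20, adjusted p = 1.54e-11). Its mean count was too low for a DEG. It was 2.63-fold higher in TPA+RGRN-305 versus vehicle (log2 fold change 1.39, SE 0.38, adjusted p = 0.00865), a call that was lost without vehicle replicate 4, which held a single read (log2 fold change 1.02, adjusted p = 0.0693).

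Bcl2a1a and Bcl2a1d moved in the same directions as Bcl2a1b. Bcl2a1a had a log2 fold change of 3.77 in TPA versus vehicle (SE 0.44, adjusted p = 4.58e-09, edgeR) and of -2.45 in TPA+RGRN-305 versus TPA (SE 0.25, adjusted p = 4.69e-10). For Bcl2a1d these values were 3.23 (SE 0.31, adjusted p = 7.27e-11) and -1.97 (SE 0.19, adjusted p = 5.11e-11). Because the copies share sequence, they are not independent measurements. Markers of neutrophils, cells known to express A1, moved with these genes. The 9 markers summed to 6.23 to 12.9 CPM in vehicle, 6.37 to 14.3 in RGRN-305, 207.6 to 331.6 in TPA and 10.8 to 49.7 CPM in TPA+RGRN-305 mice. All 6 markers with enough counts were higher with TPA and lower in TPA+RGRN-305 versus TPA, and Ly6g and Ngp were at 0 in every vehicle mouse. The markers included S100a8 and S100a9, which inflamed keratinocytes also express. The summed levels of other leukocyte markers are given beside them. Those of macrophages and monocytes summed to 317.9 to 370.7 CPM in vehicle, 383.4 to 543.8 in TPA and 301.9 to 378.6 CPM in TPA+RGRN-305 mice. These 5 markers did not move together. In TPA versus vehicle 2 were higher, 1 lower and 2 did not pass, beside 31.6% and 34.4% of all tested genes. Cd14 averaged 7.99 CPM in vehicle, 81 in TPA and 12.3 in TPA+RGRN-305 mice. Csf1r averaged 116.4, 96.7 and 117.6 CPM, and Adgre1 22.6, 20.6 and 21.3 CPM. Summed T cell markers were lower in TPA mice (17.7 to 24.1 CPM) than in vehicle (26.0 to 28.8) and TPA+RGRN-305 mice (25.0 to 30.4). Those of mast cells ran from 143.6 to 204.9 CPM in TPA against 212.9 to 224.1 in vehicle and 176.6 to 231.5 CPM in TPA+RGRN-305 mice. The part of these cells in the change of the A1 genes was not tested.

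The effectors Bax and Bak1 were modestly lower with TPA. Bax, whose protein moves from the cytosol into the mitochondrial membrane (chromosome 7, 45111015 to 45116325, minus strand, ENSMUSG00000003873.12), had normalized counts of 478, 513, 449 and 548 in vehicle mice and 441, 482, 485 and 436 in RGRN-305 mice. It was 335 to 457 (median 393) with TPA and 438 to 543 (median 486) with TPA+RGRN-305. Although the lowest vehicle mouse lay within the TPA range, the TPA mice were lower as a group, with a log2 fold change of -0.32 (SE 0.08, adjusted p = 0.000542, edgeR). Between TPA+RGRN-305 and TPA mice it was 0.29 (SE 0.06, adjusted p = 6.35e-05). The log2 fold change in TPA+RGRN-305 versus vehicle was -0.03 (95% interval -0.18 to 0.13, adjusted p = 0.849). Bax overlaps Gm45808 on the same strand, and 5.32% of its stretches of 150 bases are shared with a transcript of that gene. Since the authors counted only unambiguous reads, reads from the shared stretches may be missing from the count of Bax.

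Bak1, whose protein resides in the outer mitochondrial membrane (chromosome 17, 27238784 to 27247983, minus strand, ENSMUSG00000057789.15), had normalized counts of 321, 328, 328 and 318 in vehicle mice and 307, 295, 280.3 and 297 in RGRN-305 mice. It was 218 to 306 (median 256) with TPA and 288 to 367 (median 313) with TPA+RGRN-305. Every RGRN-305 mouse and every TPA mouse was below every vehicle mouse, while the TPA+RGRN-305 mice spread to both sides. The log2 fold change was -0.31 in TPA versus vehicle (SE 0.08, adjusted p = 0.00124, edgeR) and, between TPA+RGRN-305 and TPA mice, 0.31 (SE 0.06, adjusted p = 6.27e-05). RGRN-305 versus vehicle did not pass (-0.14, SE 0.10, adjusted p = 0.652). With library totals the log2 fold changes of Bax and Bak1 kept their sign and were larger, at -0.61 and -0.60 in TPA versus vehicle and 0.55 and 0.57 in TPA+RGRN-305 versus TPA. Bak1 overlaps Ggnbp1 and Gm50253 on the other strand. Their mean normalized counts were 31.6 and 23.2 in vehicle, 18.5 and 15.7 in TPA and 31.0 and 26.1 in TPA+RGRN-305 mice. Since the strand setting of the counting is not given, reads from the shared stretches may not be told apart.

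Bcl2l11 encodes the BH3-only protein BIM, which binds all pro-survival members, and lies on chromosome 2 (127967958 to 128004476, plus strand, ENSMUSG00000027381.17). Its normalized count was 312, 259, 229 and 272 in vehicle mice and 231, 212, 211 and 232 in RGRN-305 mice. With TPA it was 405 to 603 (median 523), and with TPA+RGRN-305 206 to 269.7 (median 236). The TPA mice lay above all others, and the TPA+RGRN-305 mice lay in the lower part of the vehicle range or below it. Bcl2l11 was 1.94-fold higher in TPA versus vehicle (log2 fold change 0.96, SE 0.09, adjusted p = 9.43e-11, edgeR), just under the fold limit of a DEG, and 0.454 of the TPA level in TPA+RGRN-305 versus TPA (-1.14, SE 0.07, adjusted p = 1.08e-15). Of the TPA+RGRN-305 mice 9 of 10 were below the vehicle mean, but the difference from vehicle did not pass (log2 fold change -0.18, SE 0.09, adjusted p = 0.16).

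Bmf, whose BH3-only protein is known to be held at the cytoskeleton until released, showed the opposite course (chromosome 2, 118359238 to 118380177, minus strand, ENSMUSG00000040093.17). Its normalized count was 456, 292, 322 and 442 in vehicle mice and 353, 390.2, 356 and 418 in RGRN-305 mice. It was 23.2 to 112.7 (median 45.6) with TPA and 134.8 to 291 (median 241) with TPA+RGRN-305. These ranges did not overlap, so that TPA+RGRN-305 mice lay above all TPA mice and below all vehicle mice. Bmf was 0.158 of the vehicle level with TPA (log2 fold change -2.66, SE 0.24, adjusted p = 2.15e-11, edgeR) and 3.82-fold higher in TPA+RGRN-305 versus TPA (1.94, SE 0.21, adjusted p = 8.1e-10). In TPA+RGRN-305 versus vehicle the log2 fold change was -0.73 (SE 0.23, adjusted p = 0.0189), and without vehicle replicate 1 or 4 it no longer passed (-0.63 and -0.64, adjusted p = 0.0886 and 0.088). The DESeq2 Wald test did not call it either (adjusted p = 0.0793). Within the TPA+RGRN-305 group, replicates 10, 5 and 2 had the lowest counts of Bmf (134.8, 156.5 and 190.2) and the highest of Mcl1 (9756.5, 8350.1 and 9033), an order noticed after the values were seen and given without a test.

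Bid, whose protein is cut by caspase-8 to link death receptors to the mitochondrion, fell with TPA (chromosome 6, 120862525 to 120894171, minus strand, ENSMUSG00000004446.13). Its normalized count was 170.0, 154, 157 and 179 in vehicle mice and 190.3, 178, 151 and 168 in RGRN-305 mice. It was 85.1 to 134 (median 115) with TPA and 121 to 175 (median 149) with TPA+RGRN-305. TPA mice were all below the vehicle mice, and the TPA+RGRN-305 mice overlapped both groups. The log2 fold change was -0.54 in TPA versus vehicle (SE 0.11, adjusted p = 3.95e-05, edgeR) and, between TPA+RGRN-305 and TPA mice, 0.36 (SE 0.08, adjusted p = 0.000362). The gene overlaps Bcl2l13 on the other strand, whose mean normalized count was 2112.5 to 2372 in the 4 groups and which did not pass in either comparison (log2 fold changes of -0.08 and 0.05). With library totals Bcl2l13 passed in both, at -0.37 (adjusted p = 6.86e-08, edgeR) and 0.30 (adjusted p = 2.1e-08). The strand setting of the counting is not given in the sources used here, so that reads from the shared stretch may not be told apart.

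**Figure D2:**
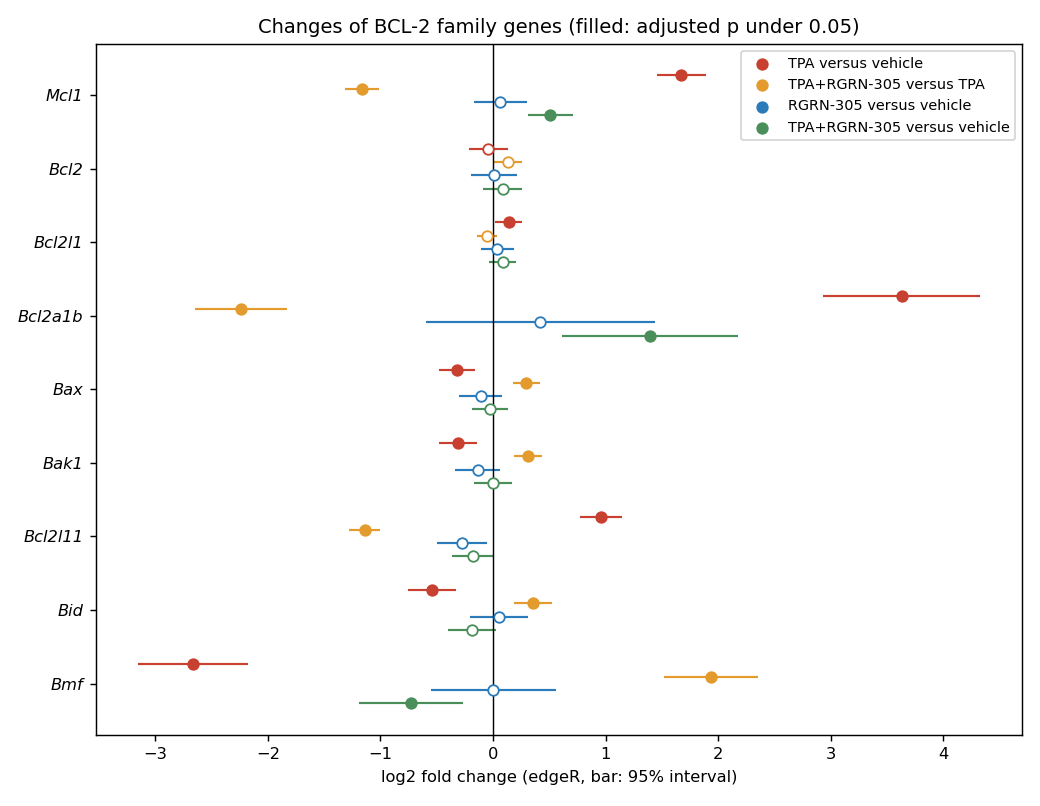
Log2 fold changes (x axis) of the 9 BCL-2 family genes (y axis) for TPA and RGRN-305 each against vehicle and for TPA+RGRN-305 against TPA and against vehicle, from edgeR with bars for the 95% interval, and filled points passed the adjusted p of 0.05. Bcl2a1b at 3.63 and Bmf at -2.66 lie farthest from 0 with TPA, and RGRN-305 versus vehicle has open points for all 9 genes.

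RGRN-305 alone changed none of the 9 genes at the adjusted p in edgeR, where 0% of all tested genes passed, and none in DESeq2, where 19 genes passed. At an unadjusted p under 0.05, 1 of the 9 passed in edgeR, against 9.53% of all genes. This was Bcl2l11, with a log2 fold change of -0.27 (SE 0.11, p = 0.0179, adjusted p = 0.469, edgeR). For Mcl1 the 95% interval was -0.17 to 0.30, for Bmf -0.55 to 0.56 and for Bcl2a1b -0.59 to 1.44.

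The effect of TPA with RGRN-305 was then set against its effect without it, as the interaction of both treatments. The interaction passed for 6 of the 9 genes, of which 3 had a positive term (Bax, Bak1 and Bmf) and 3 a negative one (Mcl1, Bcl2l11 and Bcl2a1b), against 25.8% and 25.0% of all tested genes. The term was -1.23 for Mcl1 (SE 0.14, adjusted p = 9.41e-09, edgeR), -0.86 for Bcl2l11 (SE 0.13, adjusted p = 1.45e-06) and -2.66 for Bcl2a1b (SE 0.55, adjusted p = 0.000138). It was 1.93 for Bmf (SE 0.34, adjusted p = 2.16e-05), 0.45 for Bak1 (SE 0.12, adjusted p = 0.00181) and 0.40 for Bax (SE 0.11, adjusted p = 0.00286). Each term is the effect of TPA with RGRN-305 less that without it, and so shares the vehicle and TPA mice with the latter. Bid did not pass (0.30, 95% interval -0.005 to 0.61, adjusted p = 0.095), nor did Bcl2 (0.12, adjusted p = 0.411) or Bcl2l1 (-0.09, adjusted p = 0.393). With library totals all 3 passed, at 0.59 for Bid, 0.41 for Bcl2 and 0.20 for Bcl2l1, the last with its sign turned.

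The position of the TPA+RGRN-305 mice between vehicle and TPA is given as a description, with no test between genes. On the log2 CPM scale, with the vehicle mean as 0% and the TPA mean as 100%, Mcl1 stood at 29.7% ± 14.1 (SD, n = 10), Bcl2a1b at 35.6% ± 16.0, Bmf at 26.1% ± 13.2 and Bid at 34.5% ± 27.4. Bcl2l11 stood at -18.5% ± 14.1, with a range of -38.8% to 1.93%, and the vehicle mice had an SD of 19.3% around 0. With library totals Bcl2l11 stood at -30.8% ± 20.2. The lowest TPA+RGRN-305 mouse was at 13.5% for Mcl1, 12.3% for Bmf, 3.44% for Bcl2a1b and -16.4% for Bid. Bax and Bak1, whose changes with TPA were small, stood at 8.02% ± 38.9 and 1.68% ± 35.8. Bcl2l1 stood at 61.9% ± 68.7, but at -38.6% ± 51.9 with library totals, where its change with TPA turned sign. These percentages share the vehicle and TPA means, so that their SD covers the spread among TPA+RGRN-305 mice only.

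**Figure D3:**
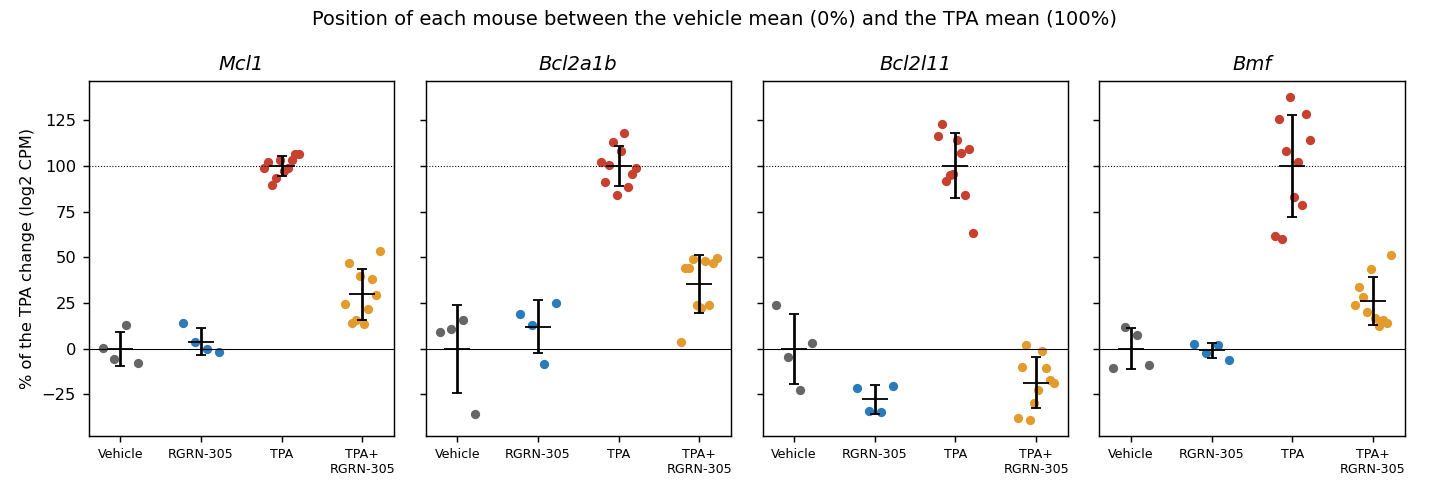
Position of each mouse (y axis, % of the TPA change on the log2 CPM scale) between the vehicle mean at 0% and the TPA mean at 100% for Mcl1, Bcl2a1b, Bcl2l11 and Bmf by group (x axis), with mean and SD (n = 4, 4, 10 and 10). TPA+RGRN-305 mice averaged 29.7% for Mcl1, 35.6% for Bcl2a1b and 26.1% for Bmf, and -18.5% for Bcl2l11, where the RGRN-305 mice also lie below 0.

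Against vehicle, 2 genes were higher in TPA+RGRN-305 mice (Mcl1 and Bcl2a1b) and 1 lower (Bmf), against 11.7% and 10.3% of all tested genes. Against RGRN-305 alone, Mcl1 was higher (log2 fold change 0.45, SE 0.10, adjusted p = 0.00241, edgeR) and Bmf lower (-0.73, SE 0.23, adjusted p = 0.0265), with a background of 8.72% and 5.33%. The call of Bmf was lost without RGRN-305 replicate 2, 3 or 4 (adjusted p = 0.0565, 0.0509 and 0.0814) and in DESeq2 (adjusted p = 0.0803). Bcl2a1b did not pass (0.97, SE 0.36, adjusted p = 0.0658), although it did in DESeq2 (0.99, adjusted p = 0.0363) and without the 3 libraries with hair follicle transcripts (1.13, adjusted p = 0.0258). Without vehicle replicate 4 it passed narrowly as well (0.97, adjusted p = 0.049).

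Levels per length, in TMM-scaled CPM per kilobase of the gene length in the table, were used to rank the genes. That length differed unequally from the canonical transcript, with 8029 against 5046 bases for Bcl2l11, 3550 against 2202 for Bid and 5253 against 4651 for Bmf. Ranks and shares therefore depend on the length used, and the counts of Bcl2a1b are uncertain. In vehicle mice Mcl1 was highest at 77.3 ± 8.75 (SD, n = 4), followed by Bax at 15.8 ± 1.36, Bcl2l1 at 14.7 ± 1.13, Bak1 at 6.74 ± 0.106 and Bmf at 3.60 ± 0.791. Bid at 2.33 ± 0.163, Bcl2 at 2.05 ± 0.206, Bcl2l11 at 1.67 ± 0.215 and Bcl2a1b at 0.325 ± 0.183 were lowest. The ranges of Bax and Bcl2l1 overlapped, as did those of Bid and Bcl2 and those of Bcl2 and Bcl2l11. In TPA mice Mcl1 was at 247 ± 15.5 (n = 10), Bcl2a1b had moved above Bcl2l11 with 4.04 ± 1.06 against 3.25 ± 0.369, with overlapping ranges, and Bmf was lowest at 0.555 ± 0.315. Bmf was thus highest of the 3 BH3-only members in vehicle skin and lowest in TPA skin.

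**Figure D4:**
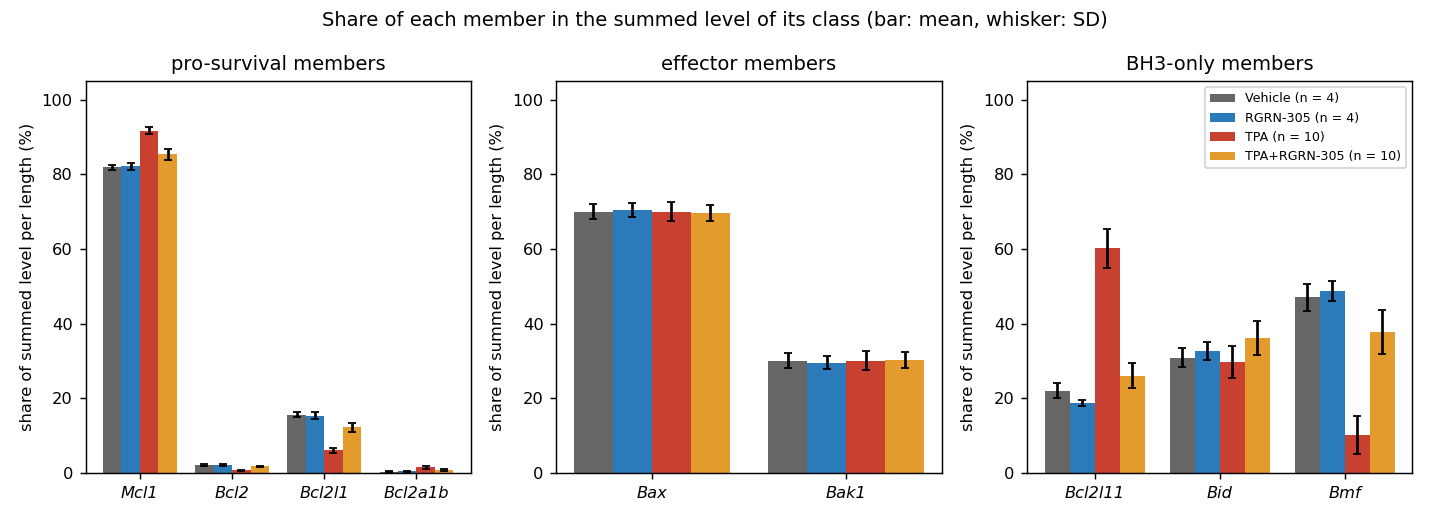
Share (y axis, %) of each gene in the summed level per length of the pro-survival, effector and BH3-only members by group, as mean (bar) and SD (whisker). Among the BH3-only members the share of Bmf is 47.0% in vehicle and 10.0% in TPA mice and that of Bcl2l11 22.1% and 60.2%, while Bax averages 69.7% to 70.4% of the sum of Bax and Bak1 in the 4 groups.

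Within each role the shares, which do not depend on the scaling between libraries, moved unequally. Of the summed level of the 4 pro-survival genes, Mcl1 made up 81.9% ± 0.610 in vehicle (SD, n = 4), 82.1% ± 0.943 in RGRN-305, 91.7% ± 0.952 in TPA and 85.4% ± 1.49 in TPA+RGRN-305 mice. The share of Bcl2l1 was 15.6% ± 0.630 in vehicle and 6.03% ± 0.603 in TPA mice, without overlap. Of the 3 BH3-only genes, Bmf held 47.0% ± 3.69 in vehicle, 48.7% ± 2.67 in RGRN-305, 10.0% ± 5.09 in TPA and 37.7% ± 5.87 in TPA+RGRN-305 mice, whereas Bcl2l11 held 22.1% ± 1.88, 18.6% ± 0.830, 60.2% ± 5.27 and 26.1% ± 3.38. Bax and Bak1 kept a similar proportion to each other, with Bax at 70.0% ± 2.01 in vehicle, 70.4% ± 1.83 in RGRN-305, 70.0% ± 2.59 in TPA and 69.7% ± 2.21 in TPA+RGRN-305 mice of the sum of both, and all groups overlapped. Bok, a further BAX-like effector outside the 9 genes, is not in this sum, and its level per length was 41.5 ± 3.48 in vehicle and 149.8 ± 10.7 in TPA mice. The ratio of Bax to Bcl2, often quoted as a measure of apoptotic priming, was 7.76 ± 1.16, 7.11 ± 0.334, 6.42 ± 0.916 and 7.20 ± 1.09 in the 4 groups, which overlapped. The ratio of Mcl1 to Bcl2l11 was 47.1 ± 10.6 in vehicle, 58.5 ± 4.75 in RGRN-305, 77.0 ± 11.9 in TPA and 75.2 ± 13.7 in TPA+RGRN-305 mice. These shares and ratios are descriptions and were not tested.

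Of 16 other genes of the family, 15 had enough counts. In TPA versus vehicle 6 were higher, 4 lower and 5 did not pass, beside 31.6% and 34.4% of all tested genes, with a median log2 fold change of -0.01, and in TPA+RGRN-305 versus TPA 4 were higher, 7 lower and 4 did not pass, beside 33.0% and 32.6%, with a median of -0.20. With library totals these counts were 5 higher and 8 lower, and 7 higher and 5 lower. RGRN-305 alone changed none of the 15 in edgeR or DESeq2, and 3 had an unadjusted p under 0.05 in edgeR, beside 9.53% of all genes. Besides the A1 copies, the largest changes were in Bcl2l14, at -2.70 with TPA (SE 0.18, adjusted p = 3.26e-14, edgeR) and, between TPA+RGRN-305 and TPA mice, 1.90 (SE 0.16, adjusted p = 4.36e-12). Bcl2l15 followed, 5.66-fold higher with TPA (SE 0.21 on the log2 scale, adjusted p = 4.63e-12) and at -1.69 in TPA+RGRN-305 versus TPA (SE 0.14, adjusted p = 1.62e-12), although 61.7% of its stretches of 150 bases are shared with a transcript of Gm43064.

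The better known members outside the 9 genes were named after their values were seen. Pmaip1, which encodes the BH3-only protein NOXA, a binding partner of MCL-1 and A1, was 77.2 to 122 in vehicle mice, 471 to 622 with TPA (median 549) and 134 to 245 (median 176) with TPA+RGRN-305. All TPA mice lay above the others, with a log2 fold change of 2.38 (SE 0.15, adjusted p = 2.62e-15, edgeR), and of -1.63 between TPA+RGRN-305 and TPA mice (SE 0.10, adjusted p = 8.78e-16). Bbc3, which encodes the BH3-only protein PUMA, a target of p53, was 221 to 242 in vehicle mice, 49.6 to 92.8 (median 79.2) with TPA and 161 to 290.0 (median 226) with TPA+RGRN-305. TPA mice lay below all others, with a log2 fold change of -1.55 (SE 0.12, adjusted p = 2.36e-13) and 1.48 in TPA+RGRN-305 versus TPA (SE 0.09, adjusted p = 4.66e-15). Bok, a BAX-like effector, was 1429 to 1703 in vehicle mice, 4718 to 6002 (median 5538) with TPA and 2758 to 4416 (median 2993) with TPA+RGRN-305. Unlike Bax and Bak1 it rose with TPA, by 1.85 on the log2 scale (SE 0.12, adjusted p = 1.06e-14), and was still 1.15 above vehicle in TPA+RGRN-305 mice (SE 0.12, adjusted p = 2.26e-08). Both the effectors and the BH3-only genes therefore held members that rose and members that fell.

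**Figure D5:**
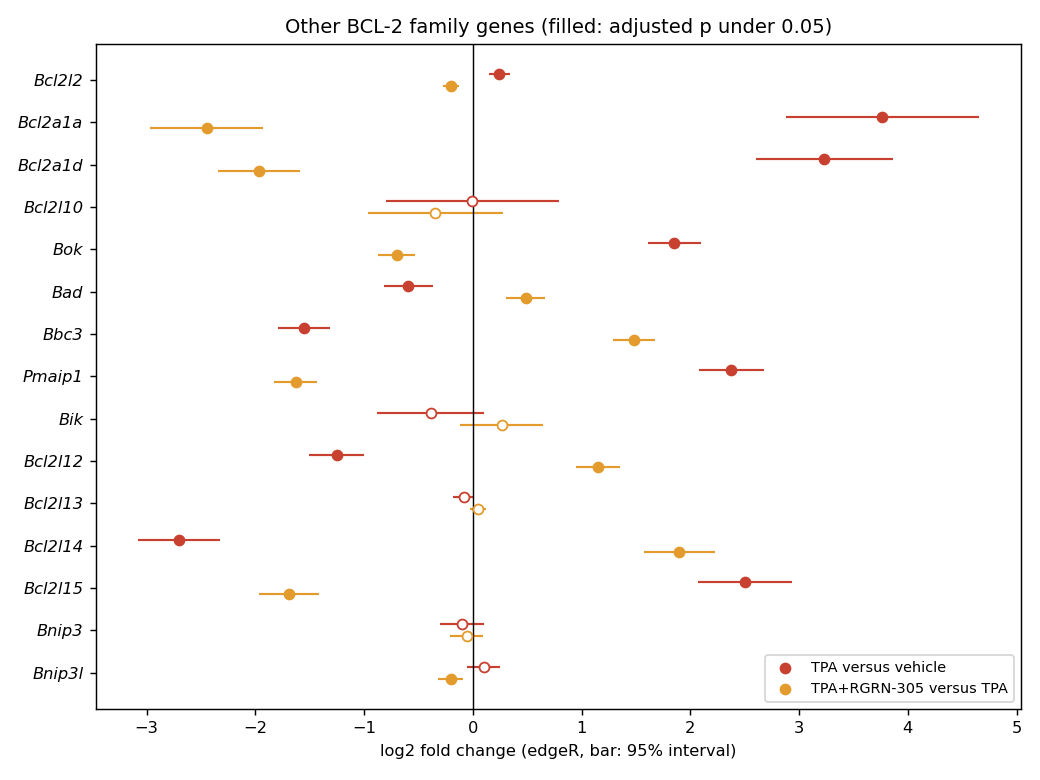
Log2 fold changes (x axis) of 15 other BCL-2 family genes (y axis) in TPA versus vehicle and TPA+RGRN-305 versus TPA, which share the TPA mice, from edgeR with bars for the 95% interval, and filled points passed the adjusted p of 0.05. Bcl2a1a, Bcl2a1d, Bcl2l15, Pmaip1 and Bok lie above 1 and Bcl2l14, Bbc3 and Bcl2l12 below -1 with TPA.

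Genes that act next to the family were examined as 5 lists, whose counts stand beside 31.6% of all tested genes higher and 34.4% lower in TPA versus vehicle, and 33.0% and 32.6% in TPA+RGRN-305 versus TPA. Of 12 caspases and adaptors, 6 were higher, 5 lower and 1 did not pass in TPA versus vehicle, and 5 were higher and 6 lower in TPA+RGRN-305 versus TPA (with library totals 4 higher and 5 lower, and 6 higher and 3 lower). Casp2, an initiator caspase, had log2 fold changes of -2.12 (SE 0.09, adjusted p = 1.69e-18, edgeR) and 1.48 (SE 0.07, adjusted p = 2.18e-17), and Casp9, the caspase activated by APAF-1, of -0.94 and 0.67. Ripk1, a kinase of death receptor signalling, was at 1.64 and -1.40, and Cycs, the gene of cytochrome c, at 0.94 and -0.62.

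Of 7 inhibitor of apoptosis genes and antagonists, 2 were higher and 2 lower with TPA, beside 31.6% and 34.4% of all tested genes, and 2 were higher and 5 lower in TPA+RGRN-305 versus TPA (with library totals 2 higher and 4 lower, and 2 higher and 2 lower). Birc3, an NF-kB target that restrains death receptor signalling, was at 1.89 and -1.56 in these comparisons, and Birc5, the mitotic gene of survivin, at -1.18 and 0.87. Htra2, a mitochondrial protease, was at -0.55 and 0.59, and Birc6 at 0.51 and -0.44. All 4 genes for MCL-1 protein turnover passed with TPA, of which with library totals only 1 passed as higher and 1 as lower. Of these Usp9x, the deubiquitinase that stabilizes MCL-1, was at 0.68 and -0.64 and Huwe1, a ligase that marks MCL-1 for decay, at 0.33 and -0.30, while Btrc was at -0.41 and 0.20. With library totals Huwe1 passed in neither comparison (0.05, adjusted p = 0.617, and -0.04, adjusted p = 0.544). Fbxw7 was at 0.17 with TPA (adjusted p = 0.0109) and turned to -0.11 with library totals.

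Of 13 transcription factors known to act on family genes, 9 were higher and 2 lower with TPA, with a median log2 fold change of 0.43 beside -0.03 over all genes, and 2 were higher and 10 lower in TPA+RGRN-305 versus TPA, with a median of -0.40 beside 0.02. With library totals these counts were 6 higher and 4 lower, and 3 higher and 6 lower. Nfkb1, Rela and Relb, which encode NF-kB subunits known to drive A1 and BCL-XL, were at 2.30, 1.97 and 1.90 with TPA and at -1.81, -1.26 and -1.08 in TPA+RGRN-305 versus TPA. Stat3, which encodes a known activator of Mcl1, was at 1.79 and -1.38. Of 6 mitochondrial membrane partners, 2 were higher with TPA and the same 2 were lower in TPA+RGRN-305 versus TPA. These were Dnm1l, at 0.30 and -0.26, and Vdac2, a partner of BAK, at 0.26 and -0.11, and neither rise with TPA held with library totals. Dnm1l was then at 0.01 (adjusted p = 0.859, edgeR) and -0.004 (adjusted p = 0.941), Vdac2 turned to -0.02 and 0.14, and the list held 4 lower genes with TPA and 5 higher ones in TPA+RGRN-305 versus TPA.

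Across the 28 libraries, the genes whose log2 CPM ran most like that of Mcl1 were Mafk, Trib1 and Csrnp1 (Pearson r of 0.992, 0.992 and 0.991 among 15100 protein-coding genes). For Bmf they were Mylip, Zfp949 and Arhgef18 (r of 0.957, 0.956 and 0.956), and for Bcl2 they included Aldh3a2 and Fbn1 (r of 0.68 and 0.638). The libraries share their groups and scaling, so that these values describe likeness over the 4 groups only. Bcl2 had no gene as close to it as Mcl1 and Bmf had.

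Promoters of the 9 genes were searched for 6 motifs on both strands, in the RefSeq windows of 250 bases before to 50 bases after each start (14 windows, GRCm38.p6). The motifs were a wide form of the AP-1 site, TGANTCA with any middle base, the cAMP response element TGACGTCA, the NF-kB site and the CArG box. The heat shock elements GAANNTTC and TTCNNGAA, which can overlap each other, were also searched. Matches were found in Bcl2a1b, Bcl2l1 and Bmf only, and none of these was to the cAMP response element, the CArG box or a heat shock element. Of 32544 promoters, 1.80% hold the cAMP response element, 1.64% the CArG box, and 7.89% and 8.55% the 2 heat shock elements. The share of promoters with any of the 6 motifs was not computed, so whether the matches exceed it was not tested. Bcl2l1 and Bmf have 3 windows each, of which a single window held the match. The match to this wide AP-1 motif in Bcl2a1b, of the 9 the gene with the largest rise, has A as its middle base. It starts 164 bases before the start (chr9:89199089-89199135, plus strand) and is shown in capitals. With any middle base, 7.79% of 32544 promoters hold this motif.
Bcl2a1b promoter: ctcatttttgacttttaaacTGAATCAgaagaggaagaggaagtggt
The NF-kB match in Bcl2l1, which moved little, starts 242 bases before the start (chr2:152830930-152830967, minus strand) and is shown in the same way, and 4.53% of promoters hold such a site.
Bcl2l1 promoter: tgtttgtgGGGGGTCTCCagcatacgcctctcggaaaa
The NF-kB match in Bmf, of the 9 the gene with the largest fall, lies on the opposite strand and begins at the start itself (chr2:118544578-118544607, minus strand).
Bmf promoter: gactctggagattgtacctcGGAGTCTCCC
These matches are descriptions of the letters in the windows, and binding was not measured.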

How the data were processed

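Ear skin RNA of 28 mice was sequenced as paired-end libraries from a directional kit. Per the submitters' processing notes the genome build was GRCm39 and the counting tool Subread version 2.10.3. The authors kept reads with 1 unambiguous alignment, and the deposited values are whole, unnormalized counts with a gene length. The annotation release and the strand setting are not given in the sources used here. Identifiers were matched to GENCODE M39 (54749 matched, 665 unmatched with 0.0567% of counts).

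Genes passed filterByExpr (minimum count 10, minimum total 15). TMM-scaled counts were tested in edgeR version 4.0.16 (R version 4.3.3) by quasi-likelihood over all 28 libraries with 1 term per group, in 6 comparisons. Log2 CPM used a prior count of 2, and 95% intervals of fold changes use the t quantile at edgeR's total degrees of freedom of each gene. Totals of 16751780 to 24716640 counts per mouse leave genes at 3 counts or fewer uncertain, and intervals cover the spread between these mice. The labels give 1 library per mouse, and which of the study's experiments a mouse came from is not given in the sources used here, so that no experiment term was fitted. No 2 libraries of the same group agreed within counting noise, and pairs from different groups were not checked for this.

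The members, lists and tests were chosen with earlier results of these data known. Named genes were the 9 members, up to 4 genes of each pathway list ranked by size of change among those that passed in TPA versus vehicle or TPA+RGRN-305 versus TPA, and the 3 genes most like Mcl1, Bcl2 and Bmf. Some results under this rule are not reported here, and Pmaip1, Bbc3, Bok, Bcl2l12 and Bcl2l13 were named outside it, after their values were seen. Alternatives were DESeq2 version 1.42.0, other scalings, no filter, only the groups compared, a replicate block and leaving out libraries. The steps were also run on simulated data in which few genes changed, so that the choice of scaling was not tested there.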

Additional observations from a re-analysis of the deposited data

Results flagged for a closer look

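The normalized count of Bcl2 in TPA+RGRN-305 replicate 8 was 477, the nearest other mouse of the group being at 417, a gap of 0.495 of the whole range of the 10 mice and above the limit of Dixon's test for a single stray value. Of 36 combinations of gene and group examined this was the only 1, and chance alone gives about 1 in 20.

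The effect of TPA differed with and without RGRN-305 by the test of the interaction for 6 of the 9 genes. Over all tested genes the interaction passed with a positive term for 25.8% and with a negative term for 25.0%. The term, on the log2 scale, was -1.23 for Mcl1, -0.86 for Bcl2l11, -2.66 for Bcl2a1b, 0.40 for Bax, 0.45 for Bak1 and 1.93 for Bmf.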

How the results depend on the processing

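Of the log2 fold changes of the 9 genes in 6 comparisons, 824 values under an alternative kept their call, 16 lost the call, 11 gained it and 3 turned sign with a call. The last were all Bcl2l1 with library totals alone, at -0.15 in TPA versus vehicle, 0.20 in TPA+RGRN-305 versus TPA and 0.20 for the interaction. For the interaction, library totals gave 8390 higher and 2687 lower genes in place of 4909 and 4742, and 6 higher and 3 lower members. DESeq2 called 19 genes in RGRN-305 versus vehicle. Replicate numbers did not pair the mice, since correlations of same-numbered libraries ran from -0.129 to 0.204. With the replicate block 2599 genes passed in TPA+RGRN-305 versus vehicle in place of 4171, and 1208 in TPA+RGRN-305 versus RGRN-305 in place of 2668, where 1 member passed in place of 2. Bmf then had an adjusted p of 0.0901 versus vehicle and 0.11 versus RGRN-305, Bcl2l1 of 0.104 in TPA versus vehicle and Bcl2 of 0.0455 in TPA+RGRN-305 versus TPA, in the fit of edgeR. When each vehicle or RGRN-305 replicate was left out, 1 to 3 members passed in TPA+RGRN-305 versus vehicle and 1 to 3 in TPA+RGRN-305 versus RGRN-305, and 7 to 8 in TPA versus vehicle. Over all genes, 2830 to 4473, 1789 to 2578 and 11971 to 12792 passed in the same fits. The lowest counts came without vehicle replicate 4 in the first and without RGRN-305 replicate 2, 3 or 4 in the second. Why these calls moved was not tested. Low counts limit Bcl2a1b.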
